A study of Saccharomyces cerevisiae with 8 samples.

Results

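Wild type budding yeast, Saccharomyces cerevisiae, that had been warmed to 37 °C was compared directly with a RAD27 knockout that had stayed at 30 °C. The comparison was chosen by its column labels and used 4 of the 8 deposited RNA libraries, 2 from each group. Both strains had first been cultured at 30 °C in rich glucose medium (YPD), then diluted into new medium and held for 4 hours at the test temperature before harvest. The series crossed the 2 genotypes with the 2 temperatures, 30 and 37 °C, which gave 4 groups. The 2 libraries of the heated wild type carried no labelled mutation, and the 2 of the unheated knockout carried the deletion and no heating, so that the groups differed in genotype and temperature at once. The labels name neither the strain background nor the gene used to replace RAD27, and they do not say whether the 2 libraries of a group came from separate cultures. Each p therefore measures the spread between these libraries, which may be technical.

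RAD27 encodes the flap endonuclease that cuts the displaced 5′ flap of an Okazaki fragment, the short piece in which the lagging DNA strand is made, before ligase seals the nick. Cells without it replicate with unprocessed flaps and nicks, which are known to signal through the checkpoint kinases Mec1, Rad53 and Dun1 and to raise the ribonucleotide reductase genes. Mild heat works through other routes, chiefly Hsf1, which drives chaperone genes, Msn2 and Msn4, which drive general stress genes, and the cell wall integrity kinase Slt2. The direct contrast asks where heat alone and loss of the flap endonuclease alone left cells in different states, and where in similar ones. It equals the heat response of wild type minus the knockout effect at 30 °C, because wild type at 30 °C cancels out of it. Positive log2 fold changes mean a higher level in the heated wild type and negative ones a higher level in the unheated knockout. Expression is given in CPM, counts scaled to library size with TMM factors, and ± after a log2 fold change is its SE.

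Of 5667 genes tested, 2731 (48.2%) differed between the groups at an adjusted p below 0.05 (edgeR's quasi-likelihood test). The heated wild type was higher for 1349 of them (23.8%) and the unheated knockout for 1382 (24.4%). Most of these differences were modest, since 130 genes were called at least 2-fold higher in the heated wild type and 130 at least 2-fold higher in the knockout. For 3178 genes (56.1%) the 95% interval of the difference lay wholly within 1.5-fold, and 963 of those were nevertheless called. A test against a 1.5-fold change left 282 genes, 137 higher in the heated wild type and 145 higher in the knockout. The groups did not overlap for any of the 2731 genes called, nor for 4317 (76.2%) of all genes tested. Scaling by library size alone in place of TMM moved the median of all genes by 0.112 towards the heated wild type and turned the split into 1789 higher and 953 lower.

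On principal component 1 (61.6% of variance) the heated wild type lay at -8.23 and -9.18 and the unheated knockout at -9.39 and -6.64. These 4 libraries thus shared a range on that axis, between wild type at 30 °C at -22.5 and -21.6 and the knockout at 37 °C at 33.8 and 43.6. Component 2, with 21.4%, separated them, with the heated wild type at 19.4 and 18.8 and the unheated knockout at -19.4 and -19.7. The remaining 4 libraries lay between -0.461 and 0.758 on component 2.

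**Figure D1:**
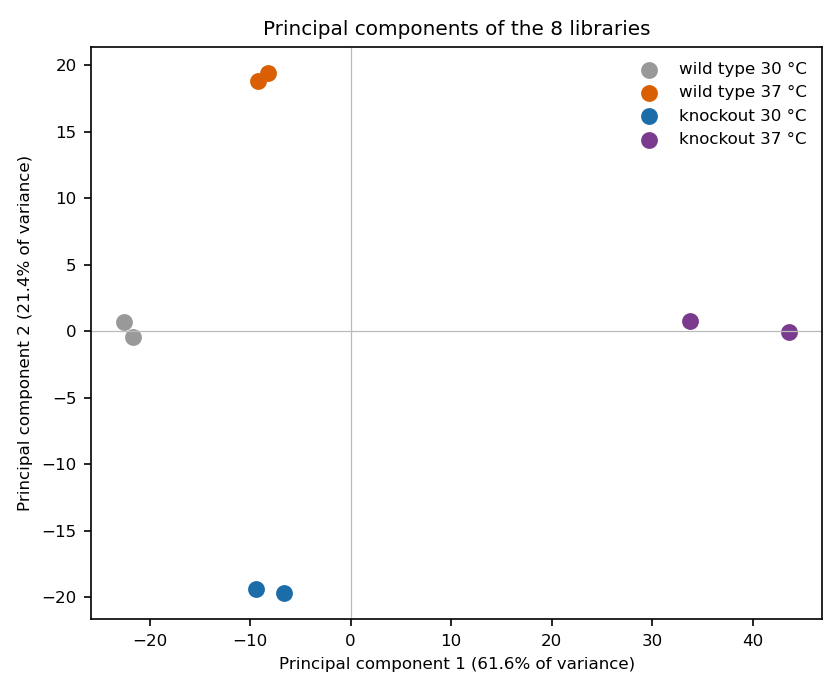
Principal components 1 (61.6% of variance) and 2 (21.4%) of the 8 libraries, computed on log2 CPM, 1 point per library and colored by group. The heated wild type (18.8 and 19.4) and the unheated knockout (-19.4 and -19.7) lie at opposite ends of component 2 and side by side on component 1.

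The 4 libraries held 5182337 to 5588983 counts, and 3 counts in a library corresponded to 0.537 to 0.579 CPM before TMM scaling. Replicates of the unheated knockout differed more than those of the heated wild type, with a chi-square per degree of freedom of 3.94 against 1.84, where counting error alone gives 1. The difference between the groups also moved with gene length. Its median was -0.16 in the second shortest eighth of genes, of 541 to 777 bases from start to stop codon, and 0.33 in the longest eighth, of 2643 to 14733 bases. Medians between replicates of a group moved with length as well but less, from -0.036 to 0.039 in the heated wild type and from -0.027 to 0.062 in the unheated knockout. With a smooth trend on length removed from each library, a step added after these medians were seen, 2425 genes were called, 2081 of them shared with the 2731. Counts of list members that moved by over 1.5 times under that step are given below.

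RAD27 checked the labels (YKL113C, chromosome XI, 224727 to 225875, R64). It had 511 and 479 counts in the heated wild type and 0 in both libraries of the unheated knockout, which is at least 324-fold lower on the TMM scale when a floor of 3 counts is set for the group's sum. The neighbouring gene APN1, for an endonuclease of base excision repair, was at 95.5 and 89.1 CPM in the heated wild type and at 38.4 and 45.7 CPM in the unheated knockout (log2 fold change 1.13 ± 0.10, adjusted p = 4.07e-06). ABF1, for a general transcription factor, flanks RAD27 opposite APN1 and was at 138 and 141 CPM against 145 and 136 CPM and was not called (-0.01 ± 0.10, adjusted p = 0.947). The knockout thus lacked the labelled transcript, and APN1 was lower in it than in the heated wild type. ABF1 was at 180.4 and 189.5 CPM in wild type at 30 °C. From there it stood at -0.41 ± 0.09 in heat and at -0.40 ± 0.09 in the knockout, so that it was lower in both conditions.

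Among genes with more than a few counts in the heated wild type, 1 other was at 0 in both unheated knockout libraries. YCL021W-A, an open reading frame without a standard name on chromosome III (83620 to 83997), had 128 and 115 counts in the heated wild type, at least 79-fold more than the same floor over the knockout group. It was at 112 and 83 counts in wild type at 30 °C and at 0 in both heated knockout libraries, so that its absence followed genotype. The strains thus differed in this transcript as well as in RAD27. Which of their other differences come from the loss of RAD27 was not tested. Among genes often used as selection markers, HIS3 had 0 counts and ADE2 at most 3 in each of the 8 libraries. URA3, for orotidine phosphate decarboxylase, was at 47.8 and 50.8 CPM in the heated wild type and at 209 and 186 CPM in the unheated knockout (95% interval of the log2 fold change -2.20 to -1.81, adjusted p = 1.2e-08). The marker that replaced RAD27 is not given in the labels, and whether URA3 or LEU2 reads came partly from it was not tested.

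Of 4 alpha-cell markers, the pheromone genes MF(ALPHA)1 and MF(ALPHA)2 had at most 5 and 8 counts in the 4 libraries compared, and STE3, for the a-factor receptor, had 12 to 25. SAG1, for alpha-agglutinin, was present in every library, at 41.9 and 42.1 CPM in the heated wild type and 32.9 and 31.1 CPM in the unheated knockout. Its difference of 0.39 ± 0.12 (adjusted p = 0.0171) was not called with DESeq2, without either library of the heated wild type or without replicate 2 of the knockout. The a-cell genes were expressed in all 8 libraries. Of their 7 members, 4 were called (57.1%, beside 48.2% of all genes), all higher in the unheated knockout. An example is MFA2, an a-factor gene, at 102 and 115 CPM in the heated wild type against 173 and 174 CPM (-0.68 ± 0.10, adjusted p = 0.000139).

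Heat shock chaperones divided between the groups. Of 29 members tested, 12 were higher in the heated wild type, 10 were higher in the unheated knockout and 7 were not called, with a median of 0.06 beside -0.002 over all genes. The share called, 75.9%, stood beside 48.2% of all genes. Without replicate 1 of the heated wild type, 6 members were called higher in the knockout.

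Members higher in the heated wild type included chaperones of the cytosol and of mitochondria. HSP26, for a small heat shock protein that holds unfolded proteins, was at 75.4 and 72.3 CPM in the heated wild type and at 15.6 and 11.6 CPM in the unheated knockout, beside 16.7 and 14.2 CPM in wild type at 30 °C and 1100 and 1013 CPM in the heated knockout. The unheated knockout thus lay at the unheated wild type level, and the heated wild type 2.44 ± 0.13 above it on the log2 scale (adjusted p = 4.14e-08). HSP82, the stress-induced Hsp90, was at 1410 and 1309 CPM against 541 and 527 CPM, with wild type at 30 °C at 295 and 254 CPM and the heated knockout at 1134 and 776 CPM. It stood above unheated wild type in both conditions, by 2.31 ± 0.14 in the heated wild type and by 0.96 ± 0.14 in the unheated knockout, and the direct difference was 1.35 ± 0.13 (adjusted p = 7.45e-06). SSA4, an inducible Hsp70, was at 153 and 143 CPM against 68.6 and 72.7 CPM (1.07 ± 0.08, adjusted p = 1.05e-06). CPR6, an Hsp90-binding prolyl isomerase, SSA1, another Hsp70, and the mitochondrial chaperonin genes HSP60 and HSP10 were higher in the heated wild type by 0.87, 0.99, 0.53 and 0.66. SSA1 shares near-identical sequence with SSA2, so its counts are uncertain.

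The members higher in the unheated knockout included Hsp40 partners and sorting factors. BTN2, which directs misfolded proteins to storage sites, was at 15.3 and 12.8 CPM in the heated wild type and at 27.3 and 30.6 CPM in the unheated knockout, beside 37.2 and 41.3 CPM in wild type at 30 °C and 16.7 and 25.6 CPM in the heated knockout. Both conditions therefore lay below unheated wild type, the heated wild type further (-1.48 ± 0.19) than the unheated knockout (-0.44 ± 0.17), and the direct difference was -1.04 ± 0.20 (adjusted p = 0.000872). CUR1, a relative of BTN2, the Hsp40 genes APJ1, SIS1 and MDJ1 and the Hsp70 exchange factor FES1 differed by -0.84, -0.90, -0.83, -0.71 and -0.60. HSP42, the other small heat shock protein of the cytosol, went against HSP26: it was at 74.8 and 68.1 CPM against 92.0 and 104 CPM (-0.46 ± 0.09, adjusted p = 0.00125).

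HSP104, for the disaggregase, was at 538 and 532 CPM in the heated wild type and at 503 and 554 CPM in the unheated knockout, beside 358 and 391 CPM in wild type at 30 °C and 873 and 811 CPM in the heated knockout. The groups overlapped, and the 95% interval of the difference ran from -0.14 to 0.18 (0.02 ± 0.07, adjusted p = 0.862). With the length trend removed the difference was -0.18 (adjusted p = 0.0826). Each condition alone stood above unheated wild type, by 0.52 ± 0.07 and 0.50 ± 0.07.

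Members on both sides of zero carried the same kind of element upstream. A heat shock element of 3 units was searched as GAANNTTC and TTCNNGAA overlapping by 3 bases, on both strands of the 500 bases before the start codon. Only exact matches were counted, so elements with a gap or a mismatched base were missed. It lay in that window for 13 of 29 chaperone genes and for 1.5% of 5988 genes. Among the genes named above as higher in the heated wild type, SSA1, HSP60 and HSP10 had such a match, and HSP26, HSP82, SSA4 and CPR6 did not. On the knockout's side BTN2, SIS1, FES1 and HSP42 had one, and CUR1, APJ1 and MDJ1 did not. SSA1, higher in the heated wild type, is shown with SIS1 and BTN2, higher in the unheated knockout, with the element in capitals. The stretches are chrI:141766-141807 (minus strand), chrXIV:619875-619921 (minus strand) and chrVII:772098-772139 (plus strand) of R64, each read 5′ to 3′ in the direction of its gene.

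SSA1: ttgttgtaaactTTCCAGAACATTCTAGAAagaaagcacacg
SIS1: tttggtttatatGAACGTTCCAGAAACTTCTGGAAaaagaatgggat
BTN2: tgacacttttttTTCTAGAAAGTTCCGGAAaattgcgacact

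**Figure D2:**
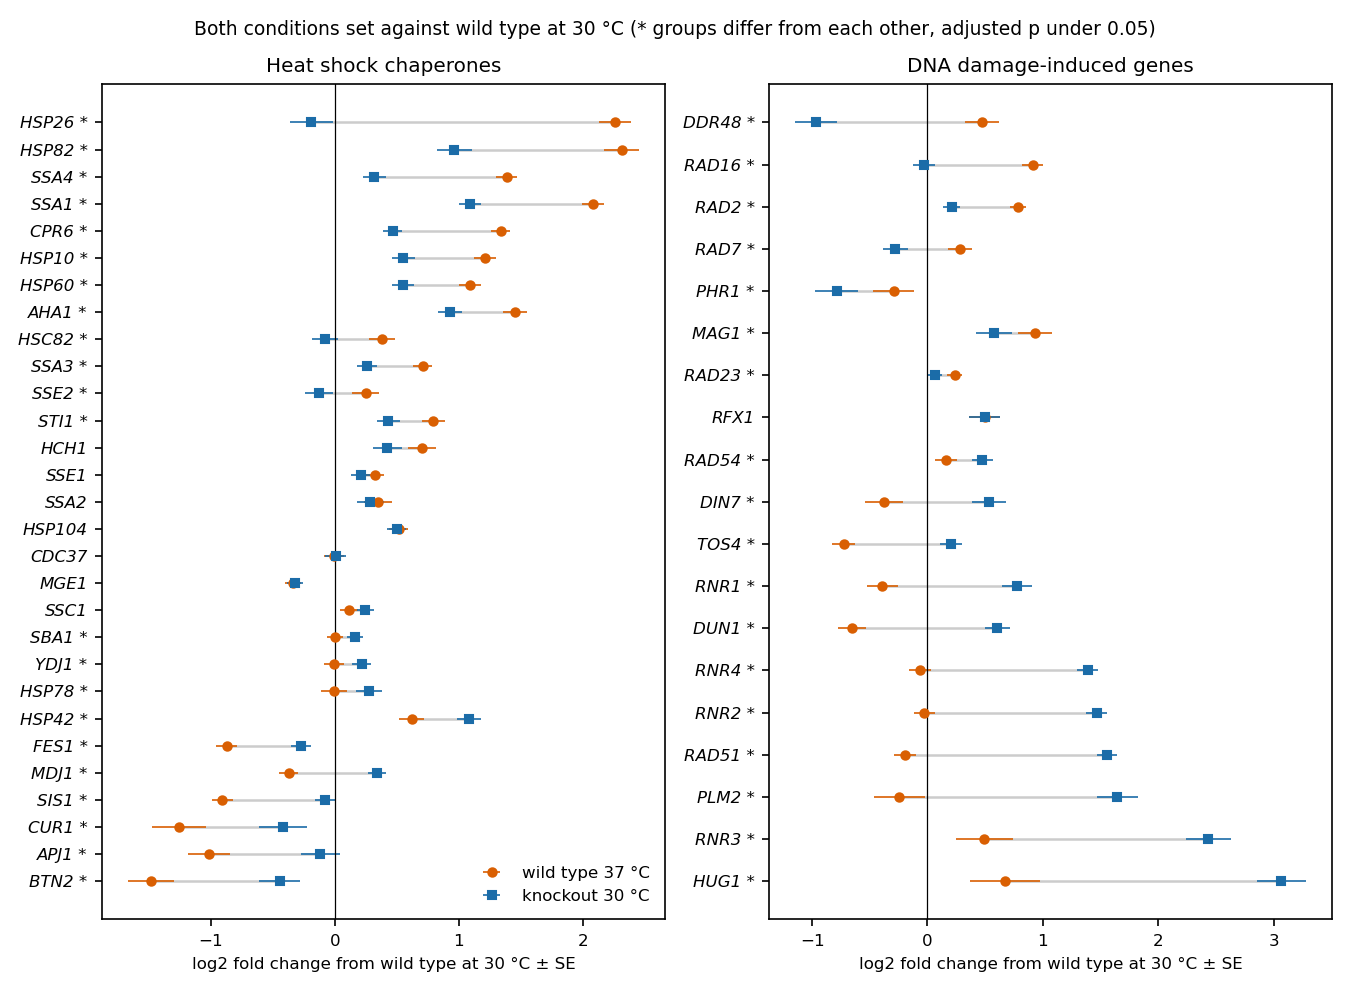
Log2 fold change from wild type at 30 °C (horizontal axis, ± SE) of the heated wild type (circles) and the unheated knockout (squares) for all 29 heat shock chaperone genes and all 19 DNA damage-induced genes, ordered by the difference between the conditions. Both effects share the wild type libraries at 30 °C. HSP26 reached 2.26 in heat and -0.19 in the knockout, while HUG1 reached 0.68 and 3.07.

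General stress genes, the usual targets of Msn2 and Msn4, were called higher in the heated wild type for 14 of 38 members and higher in the unheated knockout for 6, with a median of 0.27. The share called, 52.6%, was near the 48.2% of all genes. The 6 became 10 with the 4 libraries alone, and 3 with library size alone, without either library of the heated wild type or without replicate 2 of the unheated knockout. HSP12, for a membrane-protecting small protein, had the largest difference of the list, at 194 and 182 CPM in the heated wild type and at 17.5 and 27.9 CPM in the unheated knockout, beside 37.9 and 28.1 CPM in wild type at 30 °C and 720.0 and 918 CPM in the heated knockout. No library of the unheated knockout lay above those of unheated wild type, and the direct difference was 3.05 ± 0.18 (adjusted p = 1.19e-07). SOL4, for a 6-phosphogluconolactonase, was at 22.0 and 17.7 CPM against 5.26 and 7.21 CPM (1.66 ± 0.22, adjusted p = 6.45e-05). TSL1, a trehalose synthase subunit, and GPH1, glycogen phosphorylase, were higher in the heated wild type by 0.80 ± 0.15 and 0.66 ± 0.17.

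Other stress genes were higher in the unheated knockout. GSY1, a glycogen synthase, was at 12.1 and 9.62 CPM in the heated wild type and at 29.4 and 37.0 CPM in the unheated knockout (-1.61 ± 0.32, adjusted p = 0.00126). GLK1, glucokinase, was at 225 and 242 CPM against 341 and 364 CPM (-0.60 ± 0.11, adjusted p = 0.000558), with both groups above the 131 and 141 CPM of wild type at 30 °C. XBP1, a repressor of cyclin genes, was called at -0.97 ± 0.35 (adjusted p = 0.0346), a call lost without any 1 of the 4 libraries. CTT1, cytosolic catalase, was at 26.9 and 23.8 CPM against 22.6 and 28.5 CPM, with overlapping groups and an interval from -0.36 to 0.33.

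The stress response element AGGGG lay on either strand of the 500 bases upstream of 35 of the 38 stress genes and of 34.1% of 5988 genes. HSP12 is shown because it had the largest difference of the list and 5 matches in its window, of which 3 fall in the stretch chrVI:106809-106895 (plus strand, R64), in capitals.

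HSP12: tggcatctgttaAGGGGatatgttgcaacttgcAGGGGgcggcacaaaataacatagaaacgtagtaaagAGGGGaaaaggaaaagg

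DNA damage-induced genes were called for 94.7% of 19 members, beside 48.2% of all genes. Of these, 11 were higher in the unheated knockout, 8 of them at least 2-fold, and 7 were higher in the heated wild type, with a median of -0.91. The 7 became 4 with DESeq2 or without either library of the heated wild type.

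HUG1, a small inhibitor of ribonucleotide reductase induced through the checkpoint, was at 7.39 and 7.36 CPM in the heated wild type and at 42.3 and 35.5 CPM in the unheated knockout, beside 4.24 and 4.95 CPM in wild type at 30 °C and 139.7 and 172 CPM in the heated knockout. From unheated wild type the heated wild type stood at 0.68 ± 0.30 and the unheated knockout at 3.07 ± 0.22, and the direct difference was -2.39 ± 0.19 (adjusted p = 1.2e-06). RNR3, the damage-induced large subunit of ribonucleotide reductase, was at 15.3 and 17.0 CPM against 73.3 and 51.2 CPM (-1.94 ± 0.18, adjusted p = 3.97e-06). It was at 12.7 and 10.3 CPM in wild type at 30 °C and at 274 and 310.3 CPM in the heated knockout.

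The small subunit genes RNR2 and RNR4 stood at -0.03 ± 0.09 and -0.06 ± 0.09 from unheated wild type in heat, uncalled, and were higher in the knockout. RNR2 was at 559 and 548 CPM in the heated wild type, within the 529 and 598 CPM of wild type at 30 °C, and at 1668 and 1448 CPM in the unheated knockout (-1.49 ± 0.09, adjusted p = 1.36e-07). RNR4 was at 619.6 and 622 CPM against 1795 and 1602 CPM (-1.45 ± 0.09, adjusted p = 2.6e-07). RNR1, the main large subunit, was at 545 and 518 CPM against 1241 and 1147 CPM (-1.17 ± 0.13, adjusted p = 1.92e-05). For RNR1 the conditions lay on opposite sides of unheated wild type, at -0.39 ± 0.13 in heat and 0.78 ± 0.13 in the knockout.

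The kinase gene DUN1, which acts below Rad53 to raise nucleotide synthesis, lay likewise on opposite sides. It was at 23.3 and 27.4 CPM in the heated wild type and at 56.5 and 64.7 CPM in the unheated knockout, beside 40.1 and 39.6 CPM in wild type at 30 °C (-1.26 ± 0.11, adjusted p = 3.72e-06). PLM2, a forkhead-associated protein gene induced by replication stress, differed by -1.89 ± 0.17 (adjusted p = 4.11e-06).

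On the other side stood DDR48, a stress gene named for its damage response, at 34.5 and 30.8 CPM in the heated wild type and 11.5 and 12.5 CPM in the unheated knockout (1.44 ± 0.17, adjusted p = 2.47e-05). RAD16, for a subunit of the factor that scans silent DNA in nucleotide excision repair, was at 229.7 and 199 CPM against 116 and 107 CPM (0.94 ± 0.09, adjusted p = 5.01e-06), with wild type at 30 °C at 114 and 113 CPM. RAD2, the excision endonuclease of that pathway and a relative of RAD27, was at 159.6 and 159 CPM against 109 and 106 CPM (0.57 ± 0.07, adjusted p = 3.39e-05).

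The X box, bound by the repressor Rfx1 that the checkpoint removes, was searched by its core TTGCCATG on both strands. Here too only exact matches were counted, so cores with a mismatched base were missed. The exact core lay upstream of 2 of 19 members, RNR2 and RNR3, and of 1.4% of 5988 genes. Both are shown with the core in capitals, from chrX:391956-391987 (plus strand) and chrIX:240959-240990 (minus strand) of R64.

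RNR2: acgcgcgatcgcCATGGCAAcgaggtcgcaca
RNR3: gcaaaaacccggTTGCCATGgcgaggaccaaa

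RFX1 itself and the checkpoint genes differed less. RFX1 was not called, at 0.00, with the heated wild type 0.49 and the unheated knockout 0.50 above unheated wild type. Among 15 checkpoint genes, 6 were higher in the heated wild type and 3 in the unheated knockout, beside 23.8% and 24.4% of all genes. RAD53, for the effector kinase, was at 37.3 and 37.0 CPM against 54.6 and 59.0 CPM (-0.61 ± 0.10, adjusted p = 0.00024). TEL1 and MEC1, for the large sensor kinases, were higher in the heated wild type by 1.04 ± 0.08 and 0.63 ± 0.13. Both are long genes, and with the length trend removed they differed by 0.40 (adjusted p = 0.0011) and 0.06 (adjusted p = 0.687), and 3 of the 15 were called higher in the heated wild type. Without replicate 2 of the heated wild type, or with library size alone, 1 of the 15 was called higher in the knockout.

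Among 18 other genes of Okazaki fragment maturation, 8 were higher in the unheated knockout and 3 in the heated wild type, none by 2-fold. Over all genes tested these shares were 24.4% and 23.8%. CDC9, for the ligase that seals the nicks, was at 104 and 107 CPM in the heated wild type and at 166 and 167 CPM in the unheated knockout (-0.66 ± 0.07, adjusted p = 1.08e-05). RNH201, for the catalytic subunit of ribonuclease H2 that removes RNA primers, was at 27.5 and 27.2 CPM against 47.2 and 42.5 CPM (-0.71 ± 0.11, adjusted p = 0.000245). POL30, for the sliding clamp that recruits Rad27, differed by -0.52 ± 0.09, with heat at -0.59 ± 0.09 and the knockout at -0.08 ± 0.09 from unheated wild type. The other nucleases that can process flaps differed little: DNA2 was at 100.1 and 99.6 CPM against 83.0 and 83.5 CPM (0.26 ± 0.08, adjusted p = 0.016), and EXO1 was not called (-0.22 ± 0.09, adjusted p = 0.0561). Of the 3 higher in the heated wild type, 0 or 1 was called whenever a library was left out and with DESeq2, and 1 with the length trend removed.

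Homologous recombination genes had 5 of 21 members called in each direction, and this share, 47.6% in all, was near the 48.2% of all genes tested. RAD59, for an annealing protein, was higher in the unheated knockout (-0.66 ± 0.17, adjusted p = 0.00766), a call lost without replicate 1 of the heated wild type or replicate 2 of the knockout. RAD52 and RAD54 differed by -0.35 and -0.31. RAD50, for a long protein of the break-end complex, was higher in the heated wild type by 0.51 ± 0.11, and by 0.16 (adjusted p = 0.227) with the length trend removed. That step left 1 of 21 members higher in the heated wild type. With DESeq2, and without replicate 1 of the heated wild type or replicate 2 of the knockout, 3 were, and without replicate 2 of the heated wild type 3 were higher in the knockout.

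Daughter-cell genes had the highest median of the lists described on the side of heat. These genes are transcribed as cells leave mitosis, and many encode enzymes that split mother from daughter. Of 13 members, 11 were higher in the heated wild type, 7 of them at least 2-fold, and 0 were higher in the knockout, with a median of 1.19 beside -0.002 for all genes. As a share the 11 were 84.6%, beside 23.8% of all genes called higher in the heated wild type. The 11 were called in all 4 fits that left out a library. In bulk RNA, fewer cells in a phase and less RNA per cell cannot be told apart.

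DSE1, a daughter-specific gene, was at 553 and 565 CPM in the heated wild type and at 132 and 129 CPM in the unheated knockout, beside 349.7 and 348 CPM in wild type at 30 °C and 115 and 107 CPM in the heated knockout. The conditions lay on opposite sides of unheated wild type, 0.68 ± 0.06 above it in heat and -1.42 ± 0.07 in the knockout, and the direct difference was 2.10 ± 0.07 (adjusted p = 5.66e-10). CTS1, for the chitinase that parts the cells, was at 2951 and 2958 CPM against 1130 and 1089 CPM (1.41 ± 0.07, adjusted p = 1.64e-08). SCW11, a glucanase gene, was at 1219 and 1154 CPM against 396 and 388 CPM (1.60 ± 0.08, adjusted p = 4.14e-08).

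DSE2, another cell separation enzyme gene, was at 1224 and 1154 CPM in the heated wild type against 364 and 408 CPM (1.62 ± 0.07, adjusted p = 9.41e-09). AMN1, which turns off mitotic exit in daughters, differed by 1.27 ± 0.08, and ASH1, the daughter-specific repressor of mating type switching, by 0.85 ± 0.10. SIC1, the cyclin kinase inhibitor of late mitosis, and PCL9, a cyclin gene, were not called, at -0.13 and 0.09. Members of the list were therefore not all called, and the 2 that were not called stood on opposite sides of 0.

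Genes of other phases of the cycle were called in both directions. Of 14 genes of the G1/S transition, 10 were higher in the unheated knockout and 1, SWI4, in the heated wild type, and the 10 became 6 without replicate 2 of the heated wild type. The 1 became 0 with the length trend removed, and 2 with library size or the 4 libraries alone. The share called was 78.6%, beside 48.2% of all genes. By direction, 24.4% of all genes were higher in the knockout and 23.8% in the heated wild type. A test against a 1.5-fold change left 1 of the 14 higher in the knockout. CLN1, a G1 cyclin gene, was at 53.2 and 55.7 CPM in the heated wild type and at 98.0 and 116 CPM in the unheated knockout (-0.97 ± 0.09, adjusted p = 5.51e-06), with wild type at 30 °C at 112 and 112 CPM. CLB5, an S-phase cyclin gene, was at 36.4 and 35.7 CPM against 60.4 and 70.2 CPM, with wild type at 30 °C at 46.0 and 45.0 CPM (-0.86 ± 0.12, adjusted p = 0.000106). CDC45, for a helicase subunit, differed by -0.74 ± 0.12. For CLN1 the knockout was at the unheated wild type level, and for CLB5 and CDC45 it was above.

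Of 12 G2/M genes, 6 were higher in the unheated knockout, and 3 in the heated wild type, beside 24.4% and 23.8% of all genes. CDC20, for an activator of the anaphase-promoting complex, differed by -0.76 ± 0.10 (adjusted p = 5.99e-05), and BUD8, for a bud site marker of the distal pole, by -0.83 ± 0.08 (adjusted p = 4.93e-06). MYO1, for the long myosin of the contractile ring, was higher in the heated wild type by 0.56 ± 0.08 and by 0.07 (adjusted p = 0.533) with the length trend removed. That step left 1 of the 12 higher in the heated wild type. Histone genes were called for 30.0% of 10 members, below the 48.2% of all genes, with 1 higher in the heated wild type and 2 in the knockout. The 1 became 4 with the length trend removed, with library size alone or with the 4 libraries alone, and 5 without replicate 2 of the knockout. The 2 became 1 without that library, without either library of the heated wild type, with library size alone or with the length trend removed.

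Cell wall integrity genes, induced through the kinase Slt2 and the factor Rlm1, were higher in the heated wild type for 8 of 17 members and in the unheated knockout for 2. These counts stood beside 23.8% and 24.4% of all genes. GSC2, the stress-induced glucan synthase, was at 540.0 and 517 CPM against 271 and 246 CPM, with wild type at 30 °C at 170.2 and 168 CPM and the heated knockout at 960.1 and 1112 CPM. Both conditions stood above unheated wild type, and the direct difference was 1.03 ± 0.08 (adjusted p = 1.2e-06), or 0.54 (adjusted p = 0.000121) with the length trend removed. RLM1 itself was at 239 and 217 CPM against 128 and 129 CPM (0.82 ± 0.08, adjusted p = 4.05e-06). PST1, for a wall protein, differed by 0.76 ± 0.16 (adjusted p = 0.00156). The 2 higher in the knockout became 1 with DESeq2, with the length trend removed and without replicate 1 of the heated wild type or replicate 2 of the knockout. They became 0 with library size alone and without replicate 2 of the heated wild type.

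**Figure D3:**
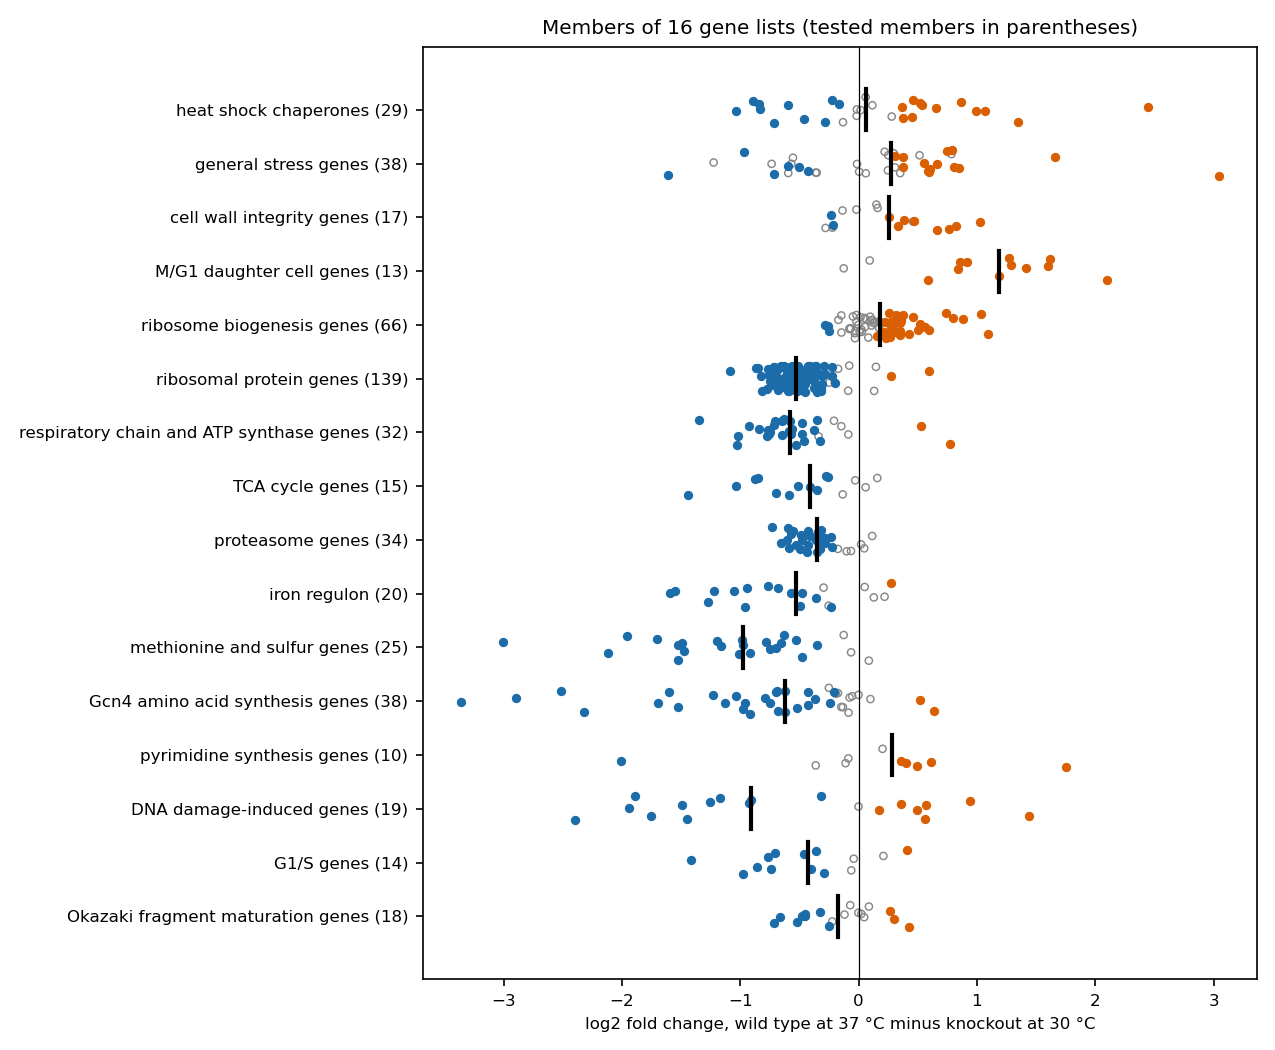
Log2 fold change, heated wild type minus unheated knockout (horizontal axis), of each tested member of 16 gene lists, with the number tested in parentheses. Filled points passed an adjusted p of 0.05 (orange higher in the heated wild type, blue higher in the unheated knockout), open points did not, and the black bar is the median, which runs from -0.98 for methionine and sulfur genes to 1.19 for daughter-cell genes.

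Methionine and sulfur genes were higher in the unheated knockout for 22 of 25 members and higher in the heated wild type for 0 (1 with library size alone), with 11 members at least 2-fold higher in the knockout and a median of -0.98. As a share the 22 were 88.0%, beside 24.4% of all genes called higher in the knockout. These genes take up sulfate, reduce it and build methionine, cysteine and S-adenosylmethionine. Without a library the 22 lay between 20 and 22. Across the list the medians from unheated wild type were -0.20 in heat and 0.65 in the knockout.

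SUL2, a sulfate permease gene, was at 15.2 and 14.3 CPM in the heated wild type and at 62.6 and 65.7 CPM in the unheated knockout, beside 16.3 and 22.5 CPM in wild type at 30 °C and 37.9 and 47.4 CPM in the heated knockout. The heated wild type lay below all other libraries, and the difference was -2.12 ± 0.15 (adjusted p = 6.85e-07). SUL1, the other sulfate permease gene, was low throughout, at 0.569 and 1.13 CPM against 6.63 and 7.40 CPM (-3.01 ± 0.42, adjusted p = 9.48e-05). MET17, for the enzyme that fixes sulfide into homocysteine, was at 243 and 256 CPM against 764 and 675 CPM, with wild type at 30 °C at 231 and 211 CPM and the heated knockout at 213 and 209 CPM. The unheated knockout was the high group for MET17 and the other 3 groups were close together (-1.53 ± 0.08, adjusted p = 2.21e-08). MET17 overlaps YLR302C, and without knowledge of strand use reads of both cannot be told apart.

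MET2, for homoserine acetyltransferase, was at 18.2 and 16.0 CPM in the heated wild type and at 56.5 and 55.0 CPM in the unheated knockout (-1.70 ± 0.13, adjusted p = 1.18e-06). MET6, methionine synthase, was at 312 and 341 CPM against 995 and 823 CPM (-1.48 ± 0.10, adjusted p = 2.77e-07). MET32, for a DNA-binding activator of the pathway, differed by -1.52, and STR3, for a cystathionine lyase, by -1.96. CYS4, MET8 and STR2 were not called, at 0.09, -0.06 and -0.13.

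Both known elements of the pathway were common upstream. The E box CACGTG, bound by Cbf1 in sulfur genes and by Pho4 in phosphate genes, lay upstream of 17 of 25 members and of 6.2% of 5988 genes. The core AAACTGTG of Met31 and Met32 sites, on either strand, lay upstream of 13 of 25 and of 2.7% of genes. SUL2 is shown with its 2 E boxes and MET17 with its Met31 core in capitals, from chrXII:323198-323253 and chrXII:732309-732340 (both plus strand, R64).

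SUL2: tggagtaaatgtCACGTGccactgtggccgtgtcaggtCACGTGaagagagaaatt
MET17: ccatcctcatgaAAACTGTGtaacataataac

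Amino acid synthesis genes of the Gcn4 regulon were higher in the unheated knockout for 26 of 38 members, 10 of them at least 2-fold, and in the heated wild type for 2, with a median of -0.62. In both directions together 73.7% were called, beside 48.2% of all genes. Gcn4 is the activator that raises these genes when amino acids are short. ARG1, argininosuccinate synthetase, had the largest difference of any gene on the knockout's side by the rule used for naming genes. It was at 35.1 and 33.4 CPM in the heated wild type and at 395 and 308 CPM in the unheated knockout, beside 194 and 128 CPM in wild type at 30 °C and 573 and 713 CPM in the heated knockout. The conditions lay on opposite sides of unheated wild type, at -2.23 ± 0.21 and 1.13 ± 0.17, and the direct difference was -3.36 ± 0.20 (adjusted p = 1.14e-07).

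The branched-chain genes stood next. LEU1, isopropylmalate isomerase, was at 297 and 328 CPM in the heated wild type and at 2002 and 1578 CPM in the unheated knockout, beside 1164 and 1038 CPM in wild type at 30 °C and 222 and 239 CPM in the heated knockout (-2.52 ± 0.11, adjusted p = 9.41e-09). BAT1, the mitochondrial branched-chain aminotransferase, was at 355 and 383 CPM against 1923 and 1767 CPM (-2.32 ± 0.07, adjusted p = 5.66e-10). LEU2, isopropylmalate dehydrogenase, was at 62.0 and 71.9 CPM against 569 and 429.6 CPM, with wild type at 30 °C at 187 and 181 CPM and the heated knockout at 98.8 and 106 CPM (-2.90 ± 0.12, adjusted p = 9.35e-09). All 3 were below unheated wild type in heat and above it in the unheated knockout. ILV3, for dihydroxyacid dehydratase, was at 685 and 747 CPM against 2211 and 1917 CPM (-1.53 ± 0.08, adjusted p = 4.14e-08).

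The 2 exceptions were CPA1, for the small subunit of carbamoyl phosphate synthetase, and BAT2, the cytosolic aminotransferase, at 0.52 and 0.64. BAT2 thus lay on the opposite side from its mitochondrial counterpart BAT1. HIS4, for a histidine pathway enzyme, was at 96.6 and 85.1 CPM in the heated wild type and at 331 and 259 CPM in the unheated knockout (-1.70 ± 0.16, adjusted p = 4.05e-06). LYS2, LYS4 and LYS12, of the lysine pathway, were not called, at -0.05, -0.08 and -0.09.

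The Gcn4 core TGACTC lay on either strand upstream of 30 of 39 members and of 12.7% of 5988 genes. The core CGGNNCCG of Leu3, the activator of the branched-chain genes, lay upstream of 8 of 39 and of 2.6% of genes. ARG1 is shown with 2 Gcn4 cores, and LEU1, LEU2 and BAT1, the 3 branched-chain genes with the largest differences, with the Leu3 core, in capitals. The stretches are chrXV:218854-218954 (plus strand), chrVII:478849-478880 (minus strand), chrIII:91115-91146 (plus strand) and chrVIII:517374-517405 (plus strand) of R64.

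ARG1: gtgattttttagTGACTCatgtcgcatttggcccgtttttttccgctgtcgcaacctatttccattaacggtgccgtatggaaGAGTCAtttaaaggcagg
LEU1: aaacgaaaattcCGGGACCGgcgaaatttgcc
LEU2: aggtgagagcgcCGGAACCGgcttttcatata
BAT1: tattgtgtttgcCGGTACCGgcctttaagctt

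**Figure D4:**
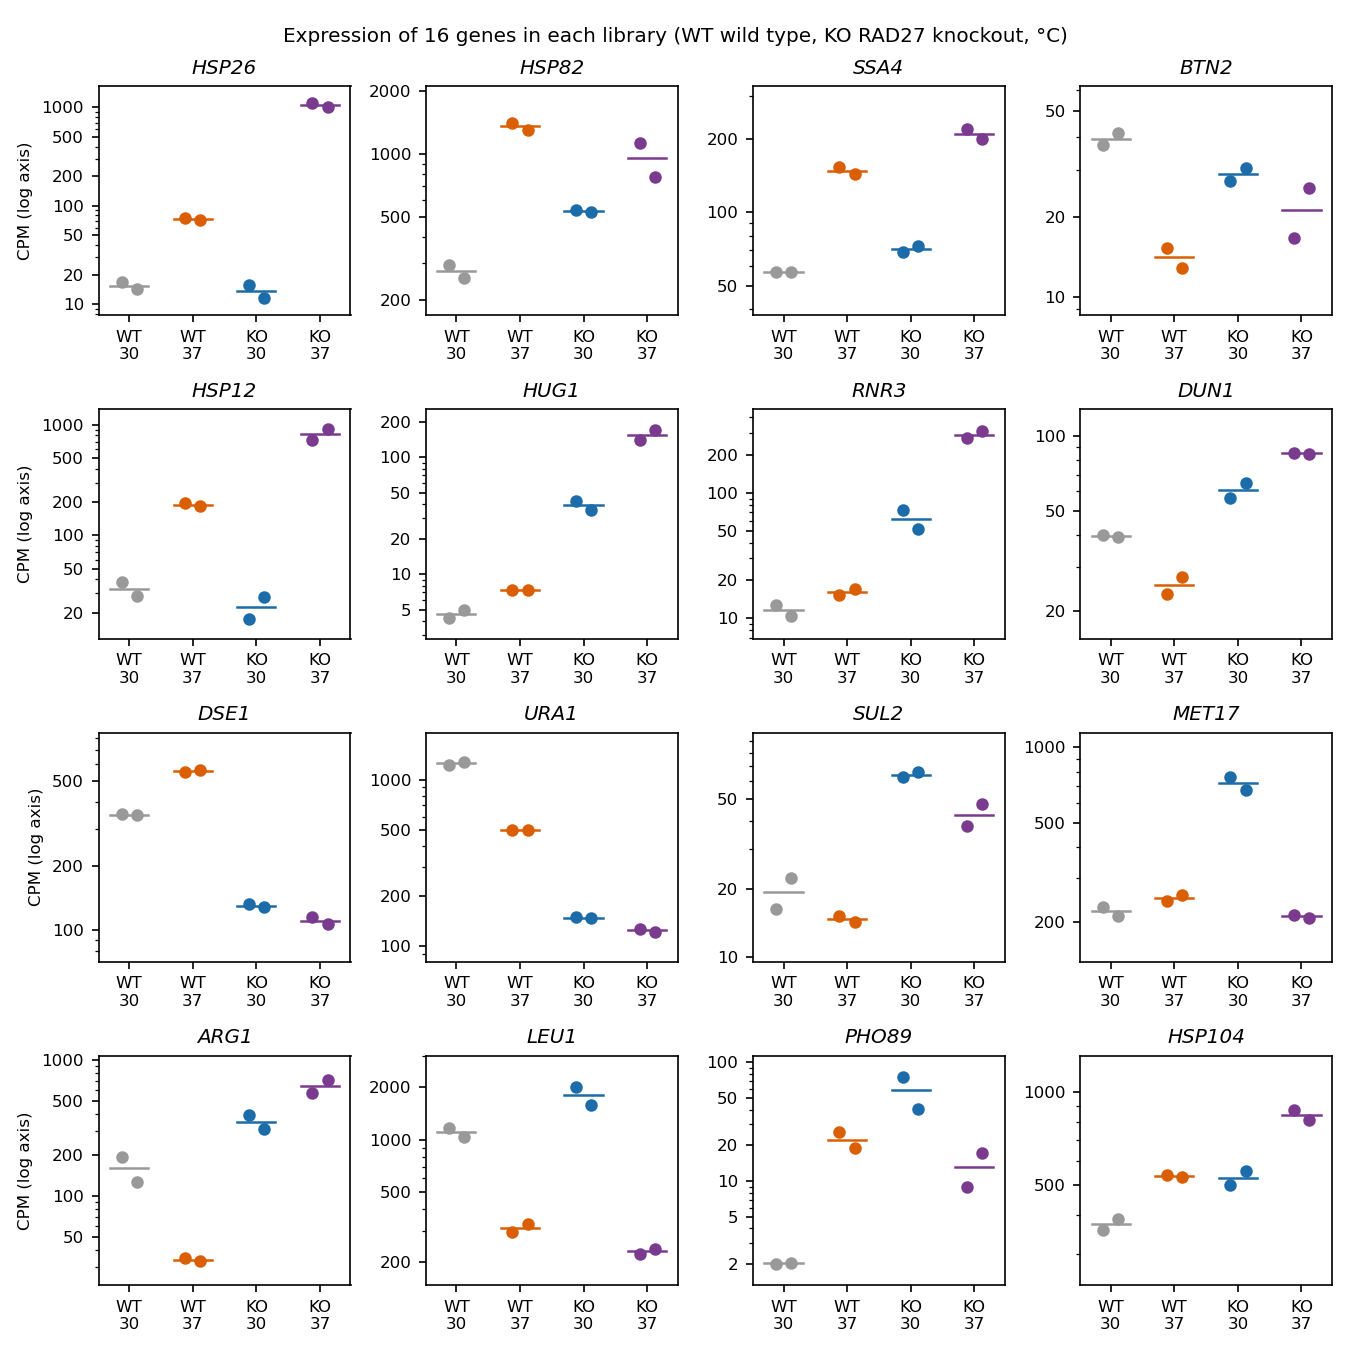
CPM (vertical log axes) of 16 named genes in each of the 8 libraries, 1 point per library with a line at the mean of each group of 2. The heated wild type lies above the unheated knockout in HSP26, HSP82, SSA4, HSP12, DSE1 and URA1, lies below it in BTN2, HUG1, RNR3, DUN1, SUL2, MET17, ARG1, LEU1 and PHO89, and shares its range in HSP104.

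Pyrimidine synthesis genes were called in both directions. Of 10 members, 5 were higher in the heated wild type and 1, URA3, in the unheated knockout. Over all genes tested the shares in these directions were 23.8% and 24.4%. URA1, dihydroorotate dehydrogenase, was at 499 and 502 CPM in the heated wild type and at 149 and 148 CPM in the unheated knockout, beside 1224 and 1277 CPM in wild type at 30 °C and 128 and 121 CPM in the heated knockout. Both conditions lay below unheated wild type, by -1.32 ± 0.06 in heat and -3.08 ± 0.07 in the knockout, and the direct difference was 1.75 ± 0.07 (adjusted p = 3.44e-09). URA4, dihydroorotase, was at 159 and 159 CPM against 126 and 122 CPM, with wild type at 30 °C at 319.6 and 339.9 CPM (0.36 ± 0.08, adjusted p = 0.00285). URA2, for the long first enzyme of the pathway, was higher in the heated wild type by 0.62 ± 0.09 and by 0.07 (adjusted p = 0.504) with the length trend removed. PPR1, for the activator of URA1, URA3 and URA4, differed by 0.49 ± 0.12 (adjusted p = 0.00598), a call lost without replicate 2 of either group (0.31 without that of the heated wild type) and with the length trend removed.

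Ppr1 binds CGG and CCG triplets 6 bases apart. This spacing was found upstream of 3 of the 10 members, URA1, URA3 and URA4, and of 2.7% of 5988 genes. The 3 are shown with the triplets and their spacer in capitals, since they carry the same element and stood on both sides of 0. For URA3, on the knockout's side, a part of the reads from the marker that replaced RAD27 was not tested. The 3 stretches lie at chrXI:24991-25057, chrV:116003-116038 and chrXII:963643-963678 (all plus strand, R64).

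URA1: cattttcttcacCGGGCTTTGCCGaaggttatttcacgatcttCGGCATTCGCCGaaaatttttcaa
URA3: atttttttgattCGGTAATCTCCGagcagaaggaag
URA4: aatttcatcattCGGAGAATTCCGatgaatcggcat

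Phosphate genes, driven by Pho4, were called in both directions, 6 of 18 higher in the heated wild type and 5 in the unheated knockout, with a median of 0.05. These shares stood beside 23.8% and 24.4% of all genes. The 6 became 3 without replicate 2 of the unheated knockout, and the 5 became 3 without replicate 1 of either group. PHO89, a sodium-coupled phosphate transporter gene, was at 25.8 and 18.9 CPM in the heated wild type and at 75.6 and 40.2 CPM in the unheated knockout, beside 2.01 and 2.06 CPM in wild type at 30 °C and 8.97 and 17.4 CPM in the heated knockout. All 4 libraries compared lay above unheated wild type, and the difference was -1.37 ± 0.28 (adjusted p = 0.00144), or -0.85 (adjusted p = 0.0239) without replicate 1 of the knockout.

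PHO84, the high-affinity phosphate transporter gene, lay the other way, at 2057 and 2081 CPM against 1485 and 878 CPM, with wild type at 30 °C at 706 and 724 CPM. Its difference of 0.81 ± 0.23 (adjusted p = 0.0109) was 1.24 without replicate 1 of the knockout, and the call was lost without replicate 2 of the knockout (0.48, adjusted p = 0.137) or either library of the heated wild type. PHO84 overlaps an antisense RNA, and strand use in counting is not given in the sources used here. The acid phosphatase genes PHO11 and PHO12 were higher in the unheated knockout, at -2.09 ± 0.31 and -1.78 ± 0.25, but are near-identical copies, so how reads were divided between them is uncertain. The E box CACGTG lay upstream of 14 of the 18.

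Iron regulon genes, driven by Aft1, were higher in the unheated knockout for 14 of 20 members and in the heated wild type for 1, with a median of -0.53. That was 75.0% called, beside 48.2% of all genes. FIT3, for a wall protein that holds iron-bearing siderophores, was at 80.0 and 57.9 CPM in the heated wild type and at 199.8 and 217 CPM in the unheated knockout, with wild type at 30 °C at 62.5 and 44.2 CPM and the heated knockout at 203 and 184 CPM (-1.60 ± 0.14, adjusted p = 3.16e-06). SIT1, a siderophore transporter gene, was at 92.5 and 85.3 CPM against 244 and 277 CPM, with wild type at 30 °C at 206 and 157 CPM and the heated knockout at 69.2 and 59.7 CPM (-1.55 ± 0.12, adjusted p = 1.09e-06). FIT3 was thus high in the knockout at both temperatures, and SIT1 low in both strains at 37 °C. TIS11, which degrades mRNAs of iron-using proteins, differed by -1.27 ± 0.15. The 1 member higher in the heated wild type, FTR1, was not called without replicate 1 of the unheated knockout or either library of the heated wild type. The Aft1 core TGCACC lay upstream of 17 of 20 members and of 12.4% of 5988 genes.

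Cytosolic ribosomal protein genes were higher in the unheated knockout for 130 of 139 members and in the heated wild type for 2. The differences ran from -1.09 to 0.59, with a median of -0.53 and 1 member called past 2-fold. RPS31, for a ribosomal protein fused to ubiquitin, was at 2012 and 2146 CPM in the heated wild type and at 3885 and 3594 CPM in the unheated knockout, beside 3795 and 4140 CPM in wild type at 30 °C (-0.85 ± 0.08, adjusted p = 7.04e-06). The knockout lay at the unheated wild type level, and the list's medians from it were -0.55 in heat and 0.01 in the knockout. Among the members, 26 have a near-identical copy. The genes are short, with a median length of 771 bases, and with the length trend removed 124 were still called higher in the knockout.

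Ribosome biogenesis factors lay the other way. Of 66, 33 were higher in the heated wild type and 3 in the unheated knockout, with a median of 0.18, and the 3 became 1 without either library of the heated wild type and 0 with library size alone. Beside the 33 and the 3, 23.8% and 24.4% of all genes were called in these directions. The share called in all was 54.5%, beside 48.2% of all genes. For 56 of the 66 the 95% interval lay within 1.5-fold. UTP10, for a component of the small subunit processome, was at 672 and 639.9 CPM against 328 and 286 CPM, with wild type at 30 °C at 502 and 468 CPM (1.10 ± 0.08, adjusted p = 6.85e-07). UTP20 and RRP5, also of early processing complexes, differed by 1.04 ± 0.08 and 0.80 ± 0.07. These 3 are long genes, and with the length trend removed their differences were 0.64, 0.44 and 0.35, all still called, and 27 of the 66 were higher in the heated wild type.

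Respiratory chain and ATP synthase genes were higher in the unheated knockout for 26 of 32 members and in the heated wild type for 2, with a median of -0.58. That was 87.5% called, beside 48.2% of all genes. CYT1, cytochrome c1, was at 50.4 and 65.5 CPM in the heated wild type and at 144 and 151 CPM in the unheated knockout, with wild type at 30 °C at 111 and 139 CPM (-1.35 ± 0.13, adjusted p = 7.38e-06). COX4, a cytochrome oxidase subunit gene, was at 35.4 and 41.3 CPM against 73.5 and 82.5 CPM, with wild type at 30 °C at 79.2 and 86.1 CPM (-1.02 ± 0.11, adjusted p = 9.48e-06). The unheated knockout and unheated wild type were close for COX4, and the heated wild type was the low group. The median length of the list was 429 bases, and 25 members were still called higher in the knockout with the length trend removed. The 2 higher in the heated wild type became 1 with DESeq2 and whenever a library was left out.

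Genes of the citric acid cycle followed, with 11 of 15 higher in the unheated knockout and 0 in the heated wild type, or 1 with the length trend removed or the 4 libraries alone and 2 with library size alone. As a share the 11 were 73.3%, beside 24.4% of all genes called higher in the knockout. ACO1, aconitase, was at 332 and 365 CPM against 955 and 941 CPM, with wild type at 30 °C at 743 and 799.8 CPM (-1.44 ± 0.07, adjusted p = 2.85e-08). SDH2, the iron-sulfur subunit of succinate dehydrogenase, was at 26.9 and 27.9 CPM against 59.1 and 53.5 CPM (-1.04 ± 0.12, adjusted p = 2e-05). CIT1, citrate synthase, was not called, at -0.03.

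Proteasome genes were higher in the unheated knockout for 28 of 34 members and in the heated wild type for 0 (1 with the length trend removed, 2 with library size alone), with a median of -0.35 and no member past 2-fold. As a share the 28 were 82.4%, beside 24.4% of all genes called higher in the knockout. PUP1, a catalytic core subunit gene, was at 139 and 144 CPM in the heated wild type and at 242 and 228 CPM in the unheated knockout, with wild type at 30 °C at 168 and 169 CPM (-0.73 ± 0.07, adjusted p = 7.8e-06). PRE9, for another core subunit, was at 212 and 220.4 CPM against 331 and 348 CPM (-0.65 ± 0.07, adjusted p = 7.45e-06). The list's medians from unheated wild type were -0.03 in heat and 0.33 in the knockout. The core GGTGGCAA of the proteasome element, bound by Rpn4, lay on either strand upstream of 27 of 34 members and of 2.4% of 5988 genes. PRE9 is shown with it in capitals, from chrVII:761221-761252 (plus strand, R64).

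PRE9: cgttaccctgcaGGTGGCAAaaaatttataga

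Further genes with large differences belonged to none of these lists. OPT2, for an oligopeptide transporter family protein, was at 29.2 and 30.6 CPM in the heated wild type and at 5.26 and 4.74 CPM in the unheated knockout, with wild type at 30 °C at 4.01 and 5.78 CPM (2.57 ± 0.18, adjusted p = 5.85e-07). YJL213W and YMR317W, without standard names, were higher in the heated wild type by 1.72 ± 0.15 and 1.80 ± 0.24. On the other side, YGR035C, COS8, of a subtelomeric family, and CSS1 were higher in the unheated knockout, with differences of -2.44 ± 0.19, -2.12 ± 0.15 and -2.03 ± 0.18. TDH1, the stress-related isozyme of glyceraldehyde phosphate dehydrogenase, was at 192 and 189 CPM against 63.5 and 49.5 CPM (1.76 ± 0.11, adjusted p = 1.7e-07), while its isozyme TDH2, whose counts are uncertain because it has a near-identical copy in TDH3, differed by -0.91 ± 0.08.

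Some genes had left the unheated wild type level in both conditions by similar amounts. As a description without a test, 9 genes of mean 10 CPM or more were at least 2-fold from wild type at 30 °C, in the same direction and past the threshold in both, with a 95% interval of the direct difference within 1.5-fold. SPL2, for a regulator that lowers low-affinity phosphate uptake, was at 37.1 and 37.5 CPM in the heated wild type and at 45.4 and 29.2 CPM in the unheated knockout, beside 7.14 and 11.1 CPM in wild type at 30 °C. The groups overlapped, and the interval ran from -0.42 to 0.42. WSC4, of the WSC family of cell wall sensors, was at 32.6 and 31.1 CPM against 37.2 and 26.0 CPM, beside 96.1 and 112 CPM (interval -0.40 to 0.43). BNA2, the first enzyme of NAD synthesis from tryptophan, was at 22.7 and 19.4 CPM against 18.9 and 19.6 CPM, beside 7.58 and 7.64 CPM (interval -0.17 to 0.43). URA4, given above, and the transposon frames YPR158C-D and YNL284C-B also qualified, the transposon frames with many near-identical copies and therefore uncertain. With the length trend removed YPR158C-D was called, at -0.53 (adjusted p = 0.00824).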

How the data were processed

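Polyadenylated RNA was measured in 8 libraries of 2 genotypes and 2 temperatures, in 4 groups of 2. The authors deposited 1 table of raw counts per gene. STAR, HTSeq and the builds R64 and sacCer3 are named in the submitters' processing notes, while tool versions, the strand setting and the treatment of reads with several matches were not given in the material used. The deposited count table has 6692 rows, of which 224 were 0 throughout. Names matched R64 for 6008, leaving 684 with 0.164% of counts. Totals per library ran from 4734266 to 5588983.

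Counts were tested in R with edgeR 4.0.16 (quasi-likelihood F test, TMM, filterByExpr with min.count 10 and min.total.count 15, per group) on all 8 libraries with 1 coefficient per group, contrasting wild type at 37 °C with the knockout at 30 °C. The spread, a biological coefficient of variation of 6.19%, thus also draws on the 2 groups not compared. Benjamini-Hochberg adjustment covered all 5667 genes, at a threshold of 0.05. The SE is the absolute log2 fold change over the square root of F, and intervals use the t quantile. The test was checked on simulated counts. Floors are 3 counts over a group and cover counting error only.

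The groups, gene lists and naming rule were chosen with earlier results of these data known. Named are RAD27 and its neighbours, the 10 largest differences in each direction with a mean of at least 10 CPM and no overlap, up to 4 members of each list, and fixed anchors such as HSP104 and RNR1. Other list members are quoted by their difference, chosen after their values were seen. Lists got no set test. Sequences were read from the R64 genome, upstream of start codons. A near-identical copy is a blastn 2.17.0 match of at least 95% identity over 50% of a gene. Alternatives included other scalings and filters, DESeq2, limma-voom, left-out libraries and, added later, removal of a lowess trend on gene length, known for 97.7% of tested genes. Protein sequences were not used here. Some members of the lists and the result of 1 promoter motif search are not reported here.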

Additional observations from a re-analysis of the deposited data

How the results depend on the processing

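The count of 2731 genes lay between 2659 and 2797 with no filter or a 5 CPM minimum, with scaling by library size or by median-of-ratios factors, with ribosomal protein genes kept out of TMM, with the older form of the test, with limma-voom and with the replicate block. It was 3026 with the 4 libraries alone, 2425 with the length trend removed and 2017 with DESeq2. Without 1 library it lay between 1906 (replicate 1 of the heated wild type) and 2228 (replicate 1 of the unheated knockout), between 971 and 1097 for genes higher in the heated wild type and between 935 and 1131 for those higher in the knockout. The test against a 1.5-fold change called 282, 137 and 145. Genes with an interval within 1.5-fold numbered 2596 to 3321 under the other settings tried and 3439 with the length trend removed. In a fit that leaves out a library, the spread of the lone library left in its group is taken from the other groups.

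Replicate numbers did not pair the libraries: deviations of same-numbered libraries correlated between -0.111 and 0.173 (0.0621 for the groups compared). The block on replicate number gave 2797 calls, 2709 of them shared. Of 1080 recomputed list counts, 954 stayed within 1.5 times. Of 155 named genes, 78 kept direction and side of the threshold under every alternative. These alternatives included the test against a 1.5-fold change, which asks for a larger difference and under which 70 lost their call.

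Sign changes were confined to genes that were not called. With library size alone YPR158C-D stood at 0.043, CTT1 at 0.098 and ABF1 at 0.104. With the 4 libraries alone ABF1 stood at 0.004. With TMM without ribosomal protein genes SPL2 stood at -0.011 and WSC4 at -0.001. With the length trend removed WSC4 stood at -0.028, HSP104 at -0.181 and YNL284C-B at -0.383. Over the fits that left out 1 library, CTT1 ranged from -0.168 to 0.166, ABF1 from -0.057 to 0.041, SPL2 from -0.281 to 0.353, WSC4 from -0.223 to 0.293, HSP104 from -0.052 to 0.091 and YNL284C-B from -0.195 to 0.316. The cause of these shifts was not tested. With 2 libraries a group, a difference that was not called is not shown to be absent, and genes near 1 CPM, such as SUL1, rest on few counts.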

Other observations

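Ergosterol synthesis genes were called for 48.0% of 25 members, beside 48.2% of all genes. Of these, 9 were higher in the unheated knockout and 3 in the heated wild type, the latter 5 with library size alone and 1 without replicate 2 of the knockout. ERG4, for the last enzyme of the pathway, was at 372 and 377 CPM in the heated wild type and at 555 and 573 CPM in the unheated knockout (-0.59 ± 0.06, adjusted p = 9.26e-06, edgeR's quasi-likelihood test). Of 7 riboflavin genes, 3 were higher in the knockout and 1, RIB4, for lumazine synthase, in the heated wild type (3 with the length trend removed, 2 with library size alone). That was 57.1% called, beside 48.2% of all genes. RIB4 was at 142 and 146 CPM against 79.5 and 79.9 CPM, with both conditions below the 283 and 307 CPM of wild type at 30 °C (0.85 ± 0.08, adjusted p = 3.37e-06). Of 14 purine genes, 3 were higher in the knockout (5 without its replicate 2) and 4 in the heated wild type (2 without its replicate 1 or without replicate 2 of the knockout). By direction, 24.4% of all genes were called higher in the knockout and 23.8% in the heated wild type. IMD2, for inosine monophosphate dehydrogenase of guanine nucleotide synthesis, was at 52.7 and 55.1 CPM against 194 and 167 CPM, with wild type at 30 °C at 198 and 192 CPM (-1.74 ± 0.11, adjusted p = 1.86e-07).

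Of 12 genes of folding in the endoplasmic reticulum, 1 was called in each direction, 16.7% in all, below the 48.2% of all genes. The 1 higher in the heated wild type became 2 with the length trend removed and 3 with library size alone. ERO1, for the oxidase that makes disulfide bonds there, was at 227 and 232 CPM in the heated wild type against 135 and 122 CPM (0.84 ± 0.08, adjusted p = 4.15e-06), while the call for SEC61 (-0.18 ± 0.07, adjusted p = 0.0438) was lost without replicate 2 of the heated wild type (adjusted p = 0.38), without replicate 1 of the knockout (0.224), and with median-of-ratios factors, library size alone, either other filter on low counts, the length trend removed, DESeq2 or the test against a 1.5-fold change (adjusted p = 0.05 to 1.0). Of 19 genes of gluconeogenesis and acetate use, 21.1% were called, below the 48.2% of all genes, and 3 were higher in the knockout. They became 8 with the 4 libraries alone, 7 with the replicate block, 5 with DESeq2 and 1 without replicate 2 of the heated wild type. The 1 higher in the heated wild type (2 with library size or the 4 libraries alone) was MDH2, for cytosolic malate dehydrogenase, at 131 and 113 CPM against 47.4 and 52.6 CPM, with wild type at 30 °C at 339.5 and 365 CPM (1.29 ± 0.20, adjusted p = 0.000197). Mitochondrial ribosomal protein genes had 15 of 69 members higher in the knockout and 4 in the heated wild type, and the share called, 27.5%, stood below the 48.2% of all genes. The 15 became 5 with library size alone, 6 with DESeq2, 3 without replicate 1 and 8 without replicate 2 of the heated wild type, 7 without replicate 2 of the knockout and 8 with the length trend removed, and the 4 became 1 with DESeq2, 2 without replicate 2 of the heated wild type and 7 with the length trend removed.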
